A study of Mus musculus with 47 samples.

Results

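The E proteins and their Id inhibitors were followed across 47 mouse T-cell lymphoblastic tumours through the 6 genes Tcf3, Tcf12, Tcf4, Id1, Id2 and Id3, out of 12393 genes with a symbol on the array. Members were all probe sets whose array symbol is one of those 6 names, which gave 16 of the 22690 probe sets on each Affymetrix array. Tcf3 had 3 probe sets, Tcf12 had 2, Tcf4 had 6, Id1 had 1, Id2 had 3 and Id3 had 1. A probe set is a group of short oligonucleotides read as one signal, and signals are given in the linear units of the deposited tables.

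E proteins are basic helix-loop-helix transcription factors that bind DNA as dimers at E-box sites, and in thymocytes they hold cells at developmental checkpoints and drive recombination and pre-T-cell receptor genes. Id proteins carry the dimerization part without the DNA-binding part, so that an E protein paired with an Id protein cannot bind DNA. Tal1 also pairs with E proteins, and LMO proteins bridge such complexes, while loss of E2A, the product of Tcf3, is a known route to T-cell lymphoma in mice.

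Each tumour was hybridised to 1 array, and the 14 groups are the backgrounds named in the sample titles. They comprised 2 E2A knockout and 2 rag E2A knockout tumours, 2 Tal1 transgenic, 3 Tal1-LMO2 double transgenic, 3 LMO1 transgenic and 3 labelled olig1-LMO1 double transgenic tumours, and 6 TLX1 transgenic tumours, which alone are labelled TLX1 positive. The others were 3 p53 knockout, 3 ThPOK transgenic, 3 labelled Nup98HoxD13 transgenic, 2 Pokemon transgenic, 3 Ikaros Plastic, 3 beta-catenin transgenic and 9 Cdkn2a knockout tumours raised by retroviral insertional mutagenesis. The labels give no strain, age, transgene promoter or rag allele, and neither wild-type mice nor normal thymus is among the samples, so every difference is between tumours.

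Array medians ran between 49.5 and 106, and correlations between arrays between 0.754 and 0.983. The medians differed by background. They were 49.5 to 61.4 in E2A knockout, rag E2A knockout, Tal1 transgenic and Tal1-LMO2 tumours. Beta-catenin transgenic arrays had 84.0 to 93.65 and Ikaros Plastic arrays 94.25 to 106, against 57.9 to 96.5 in the remaining backgrounds. Signals were not normalized again, and quantile normalization was run as an alternative. Summed T-cell marker signal was 15910 to 31150 in E2A-deficient tumours and 1541 to 21760 in the other 43. Several arrays stood apart. The p53 knockout tumour 2 had the lowest T-cell sum of all 47 tumours (1541, with 1 of 7 markers above the array median). It also had the highest sums for endothelium (17500, against at most 1451 in the 44 tumours of other backgrounds) and stroma (23370). Whether this sample is a T-cell tumour was not tested. TLX1 transgenic tumours 2, 5 and 6 had the largest log2 ratios of 3′ to 5′ Gapdh signal, a measure of RNA and cDNA length, at 2.86, 2.37 and 1.87, against at most 0.71 in the 41 TLX1-negative tumours. Lmo1 signal was 11.1 to 34.3 in the tumours labelled olig1-LMO1 and 586 to 2526 in those labelled Nup98HoxD13, which goes against those labels, so both groups are named here as labelled. The Tal1 probe set had 8.93 and 15.3 in Tal1 transgenic tumours and 19.1, 9.33 and 3.98 in Tal1-LMO2 tumours, against 2.97 to 205 (median 14.3) over all 47, so it did not set these 5 tumours apart; whether it reads the transgene was not tested, and they are called Tal1-labelled. The labels do not say whether tumours of a background came from separate mice, so that p-values measure only the spread between these samples. In bulk tumour RNA, fewer cells of a type and less RNA per cell cannot be told apart.

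Of the 16 member probe sets, 14 passed the filter of a signal above the array median in at least 2 arrays. Here and below a difference is on the scale of log2(signal + 15.9), which shrinks changes at low signal, and a call is a limma adjusted p below 0.05 over all 14054 probe sets tested. The Tcf4 probe set 1416725_at (0.625 to 39.0) and the Id2 probe set 1453596_at (1.83 to 105) did not pass. All 14 differed among the 14 backgrounds by limma's F test, against 71.4% of all probe sets, so this count does not set the members apart. Between 51.0% and 73.1% of a member's variance lay between backgrounds. Along the order of background means, at most 1 of the 13 steps between neighbours was larger than the spread within backgrounds for any member, so that neighbouring backgrounds were mostly not separated. The map of differences gives each background's position for all 14 probe sets.

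**Figure D1:**
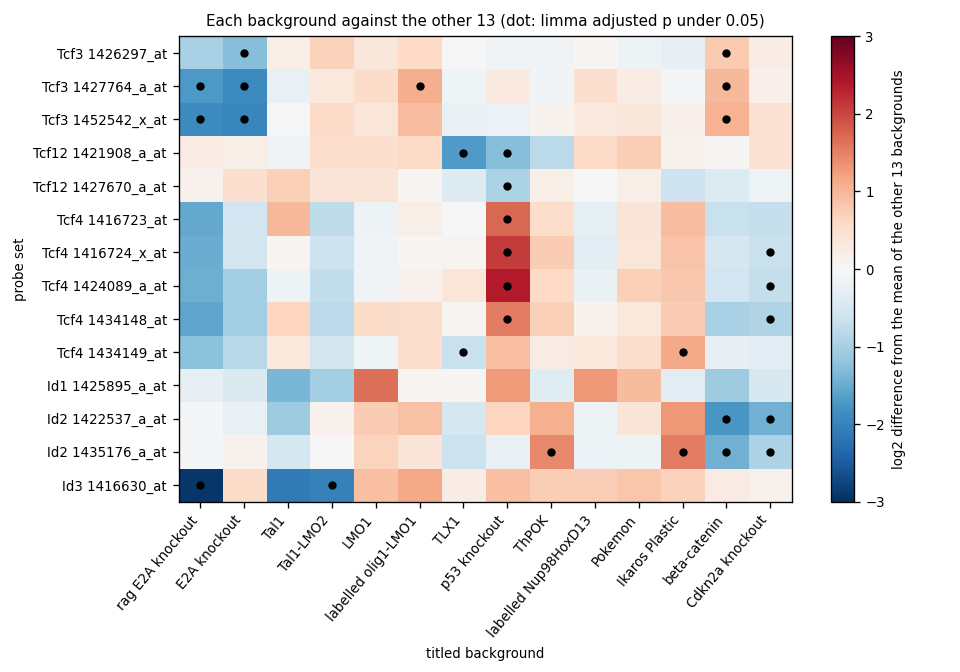
Differences of each background from the mean of the other 13 (columns) for the 14 tested probe sets (rows), in log2(signal + 15.9). Colour gives the difference and its sign, and a dot marks a limma adjusted p below 0.05. The 3 Tcf3 probe sets are lowest in both E2A-deficient backgrounds, and Id3 is lowest in rag E2A knockout, Tal1 transgenic and Tal1-LMO2 tumours.

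Tcf3, the E2A gene (chr10:80409541-80433976, GRCm38.p6), was lower in E2A-deficient tumours on all 3 of its probe sets, but the depth of the fall depended on the probe set. On 1426297_at the E2A knockout tumours had 146 and 275 and the rag E2A knockout tumours 276 and 227, against a lowest, median and highest of 203, 582 and 1010 in the other 43 tumours. On this probe set 42 of the 43 other tumours lay above the highest E2A-deficient tumour, and the exception was Ikaros Plastic tumour 2 at 203. The p53 knockout tumour 2, at 277, was next to the highest E2A-deficient tumour.

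The probe set 1427764_a_at, whose suffix marks probes shared by alternative transcripts of one gene, had 44.3 and 28.4 in E2A knockout tumours and 39.2 and 46.3 in rag E2A knockout tumours, against 66.1 to 412 (median 189) in the others. The probe set 1452542_x_at, whose suffix marks probes that may also bind other transcripts, had 2.34 and 1.24 in E2A knockout tumours and 2.51 and 2.21 in rag E2A knockout tumours, against 5.62 to 136 (median 68.4) in the others. On both probe sets all 4 E2A-deficient tumours lay below the other 43, as was the case for 0.0925% of all 14054 probe sets tested. The lowest of the others on 1452542_x_at was TLX1 transgenic tumour 2, one of the arrays with a high Gapdh ratio.

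Mean signal in the 4 E2A-deficient tumours was 231 ± 60.9, against 571 ± 171 in the other 43 (SD) on 1426297_at, so that 40.5% remained. It was 39.6 ± 8.04 against 209 ± 82.7 on 1427764_a_at, where 18.9% remained, and 2.07 ± 0.569 against 66.0 ± 31.4 on 1452542_x_at. All 4 signals on 1452542_x_at were below 15.9, the 25th percentile of all signals, so no remaining share is given there, and the size of its log2 difference rests on the offset. The parts of the transcript that the probes lie on, and the part of the gene deleted in these mice, were not given in the sources used here. Whether the probes lie inside the deleted part was not tested.

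**Figure D2:**
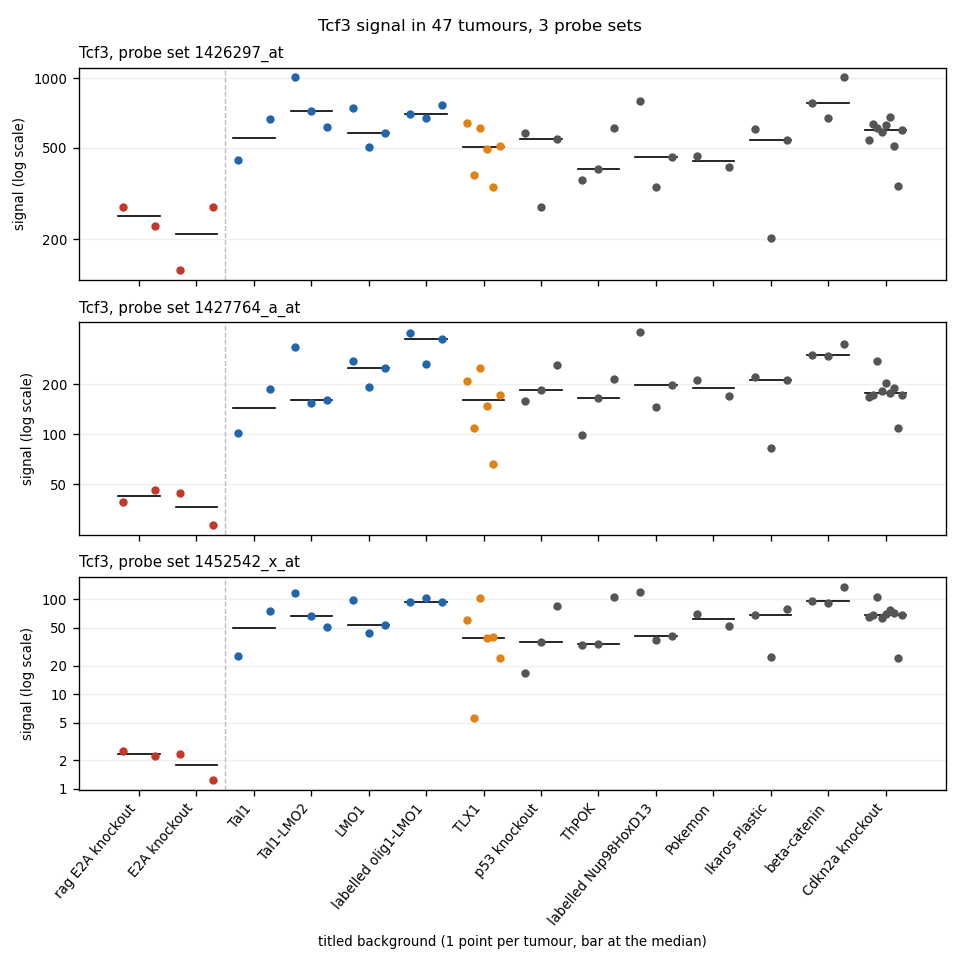
Tcf3 signal (log axis, deposited units) in every tumour by background, 1 panel per probe set; points are tumours and bars are medians. On 1427764_a_at and 1452542_x_at the 4 E2A-deficient tumours lie below all other 43, and on 1426297_at Ikaros Plastic tumour 2 lies among them.

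Against the mean of the other 12 backgrounds, the E2A-deficient tumours differed by −1.22 ± 0.21 on 1426297_at (SE, limma adjusted p = 0.000124), −1.97 ± 0.24 on 1427764_a_at (7.04e-07) and −2.09 ± 0.30 on 1452542_x_at (1.07e-05). All 3 calls held with each tumour left out in turn, with the other offsets and with quantile normalization. Of all 14054 probe sets, 12.3% were called in this contrast, 3.81% higher and 8.45% lower; 6 of the 14 member probe sets were called, all lower, 3 of Tcf3 and 3 of Tcf4.

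The difference between probe sets within arrays is a description with no test, since all 3 were set out because they differ in reading the knockout. The log2 difference between 1426297_at and 1427764_a_at was 0.72 larger in the 4 E2A-deficient tumours than in the other 43, at 2.13 against 1.41. Between 1426297_at and 1452542_x_at it was 0.85 larger, and between 1427764_a_at and 1452542_x_at it was 0.13 larger. These values rest on the offset added before the logarithm. With an offset of 1 they were 1.01, 2.99 and 1.97, while with an offset at the median signal they were 0.22, −0.20 and −0.42, which turns the direction of both comparisons with the dimmest probe set.

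Each E2A background was also set against the mean of the other 13. E2A knockout tumours differed by −1.28 ± 0.29 on 1426297_at, −1.92 ± 0.33 on 1427764_a_at and −1.95 ± 0.42 on 1452542_x_at (limma adjusted p = 0.00637, 0.000391 and 0.00385), and all 3 were called, where 4.08% of all probe sets were called and 2.71% were lower. Rag E2A knockout tumours differed by −1.73 ± 0.33 on 1427764_a_at and −1.90 ± 0.42 on 1452542_x_at (adjusted p = 0.00344 and 0.0112), where 1.59% of all probe sets were called. On 1426297_at their difference of −0.97 ± 0.29 was not called (adjusted p = 0.0778). With 2 tumours a background, leaving out either rag E2A tumour ended both of its calls at a similar size (−1.64 and −1.81 on 1427764_a_at, −1.91 and −1.89 on 1452542_x_at), and leaving out E2A knockout tumour 1 ended the calls on 1426297_at (−0.86) and 1452542_x_at (−1.996) in E2A knockout tumours. Leaving out E2A knockout tumour 2 ended the call on 1452542_x_at (−1.91). In such fits the remaining tumour is assumed to vary like the other groups.

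No member probe set was called by limma between rag E2A knockout and E2A knockout tumours, in a contrast that called 0.0285% of all probe sets, or 4, while 785 had an unadjusted p below 0.05. Against the 5 Tal1-labelled tumours (Tal1 transgenic and Tal1-LMO2 double transgenic) the E2A-deficient tumours differed in 0.0356% of all probe sets, which is 5 of 14054, with 0.0285% lower, and 3 of those 5 were the Tcf3 probe sets. Tcf3 on 1426297_at was 443 and 663 in Tal1 transgenic tumours and 1010, 722 and 612 in Tal1-LMO2 tumours, all above the 4 E2A-deficient tumours, as in 0.911% of all probe sets. The E2A-deficient minus Tal1-labelled differences were −1.46 ± 0.27, −1.74 ± 0.30 and −2.05 ± 0.39 on 1426297_at, 1427764_a_at and 1452542_x_at (limma adjusted p = 0.0185, 0.0102 and 0.0197). Leaving out Tal1 transgenic tumour 2 or Tal1-LMO2 tumour 1 ended all 3 calls, with differences between −1.32 and −1.91, and leaving out any one of the E2A-deficient tumours ended 1 or 2 of them.

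Near the other end of the Tcf3 order stood the beta-catenin transgenic tumours, whose transgene encodes the effector of Wnt signalling. Their background mean was highest on 1426297_at and 1452542_x_at, and below that of labelled olig1-LMO1 tumours on 1427764_a_at. On 1426297_at the log2 mean was 9.69 in beta-catenin transgenic, 9.61 in Tal1-LMO2 and 9.51 in labelled olig1-LMO1 tumours. No step between these was larger than the spread within backgrounds. Beta-catenin transgenic tumours had 784, 671 and 1010 on 1426297_at, 302, 297 and 349 on 1427764_a_at, and 95.5, 91.6 and 136 on 1452542_x_at. All 3 tumours lay above the median of the 43 tumours without E2A deficiency on each probe set. Against the other 13 backgrounds they differed by 0.79 ± 0.24, 0.97 ± 0.27 and 1.05 ± 0.34 (limma adjusted p = 0.0162, 0.00932 and 0.0258), where 20.8% of all probe sets were called, 13.9% of them higher. Leaving out tumour 3 ended all 3 calls, with differences of 0.63, 0.90 and 0.90. Leaving out tumour 1 ended the calls on 1426297_at (0.81) and 1452542_x_at (1.12), and leaving out tumour 2 ended the call on 1452542_x_at (1.15). The reference mean includes both E2A-deficient backgrounds. Markers of other cells were high in the same tumours: summed dendritic markers were 418 to 1230, against 48.4 to 662 in the other 44, with 3 of 3 tested markers higher and Zbtb46, Cd209a and Xcr1 not tested. Summed B-cell markers were 6439 to 8914, against 157 to 18590 in the other 44, with 4 of 6 higher. Summed myeloid markers were 6372 to 10240, against 940 to 40850 in the other 44. Over 47 tumours Tcf3 on 1426297_at had r = 0.04 with the dendritic, −0.069 with the B-cell and 0.218 with the myeloid sums. On 1427764_a_at these were 0.159, 0.083 and 0.317, and on 1452542_x_at 0.177, 0.016 and 0.278. All are log2 values from the same arrays. The part of these cell types in the beta-catenin difference was not tested.

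The tumours labelled olig1-LMO1 had 408, 263 and 377 on 1427764_a_at and differed by 1.10 ± 0.27 (limma adjusted p = 0.0372), where 0.875% of all probe sets were called and 0.356% were higher; leaving out any one of the 3 ended the call. Their values on 1426297_at, at 701, 673 and 763, were not called. Here too the reference mean includes both E2A-deficient backgrounds. On 1427764_a_at the ascending order of background means began with E2A knockout (log2 mean 5.69 ± 0.32) and rag E2A knockout (5.87 ± 0.12), went on with Tal1 transgenic (7.27 ± 0.57) and ended with beta-catenin transgenic (8.37 ± 0.12) and labelled olig1-LMO1 tumours (8.49 ± 0.32, SD). Only the step above rag E2A knockout, of 1.40, was larger than the spread within backgrounds of 0.46.

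Tcf12 (chr9:71844252-72111893) encodes HEB, the other main E protein of thymocytes, which pairs with E2A. Both of its probe sets were above the array median in all 47 tumours. E2A knockout tumours had 2969 and 3233 on 1427670_a_at and rag E2A knockout tumours 2601 and 2332, against 595 to 4023 (median 2211) in the other 43. On 1421908_a_at E2A knockout tumours had 1438 and 1674 and rag E2A knockout tumours 1575 and 1674, against 160 to 2859 (median 1695). All 4 lay inside the range of the others on both. The differences of 0.34 ± 0.21 and 0.23 ± 0.37 were not called (limma adjusted p = 0.305 and 0.742).

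Tcf12 was higher on 1427670_a_at in the 11 tumours carrying Tal1 or LMO transgenes by their labels. Tal1 transgenic tumours had 4023 and 3150, Tal1-LMO2 tumours 3463, 2473 and 2775, LMO1 transgenic tumours 2944, 2852 and 2891, and labelled olig1-LMO1 tumours 2075, 3289 and 1851. Of the 11, 10 lay above the mean of the 7 other TLX1-negative backgrounds without E2A deficiency, and the difference from those was 0.58 ± 0.15 (limma adjusted p = 0.00327), in a contrast that called 28.5% of all probe sets and 9.01% as higher. On 1421908_a_at the same contrast gave 0.37 ± 0.26 and no call (adjusted p = 0.299). Without the 2 backgrounds whose labels Lmo1 goes against, 1427670_a_at gave 0.73 (adjusted p = 0.00164). In the same contrast 7 of 8 stroma markers and 6 of 9 myeloid markers were lower, and their part in this value was not tested.

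In TLX1 tumours the Tcf12 probe sets parted. On 1421908_a_at TLX1 transgenic tumours had 1093, 160, 1185, 610, 316 and 197, and 31 of the 41 TLX1-negative tumours lay above the highest of them. The TLX1-positive minus TLX1-negative difference was −1.74 ± 0.34 (limma adjusted p = 0.000132), where 28.2% of all probe sets were called and 15.7% were lower. On 1427670_a_at the same tumours had 1688, 1581, 2561, 1352, 1940 and 1569, with a difference of −0.34 ± 0.22 that was not called (adjusted p = 0.244).

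Among TLX1 tumours the 3 lowest on 1421908_a_at, tumours 2, 6 and 5, were those with the largest Gapdh 3′ to 5′ ratios. Across all 47 tumours 1421908_a_at had Pearson r = −0.777 with that ratio and 1427670_a_at r = −0.218. The Spearman correlations over the same 47 were −0.371 and 0.093. In the 41 TLX1-negative tumours the Pearson values were −0.528 and −0.114. Both axes come from the same arrays. Without tumours 2, 5 and 6 the TLX1 difference on 1421908_a_at was −0.72 (limma adjusted p = 0.328), and with the ratio as a covariate it was 4e-04 (adjusted p = 1). With background as a random block it was −1.71 and not called (adjusted p = 0.15). The ratio was 0.27 to 2.86 in TLX1-positive and −0.53 to 0.71 in TLX1-negative tumours, so the ranges overlapped in part. TLX1 transgenic tumours 1, 3 and 4 lay inside the TLX1-negative range, above its median of −0.28, and tumours 2, 5 and 6 lay beyond it. TLX1 status and the ratio thus went together, and their parts in this difference cannot be told apart here.

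**Figure D3:**
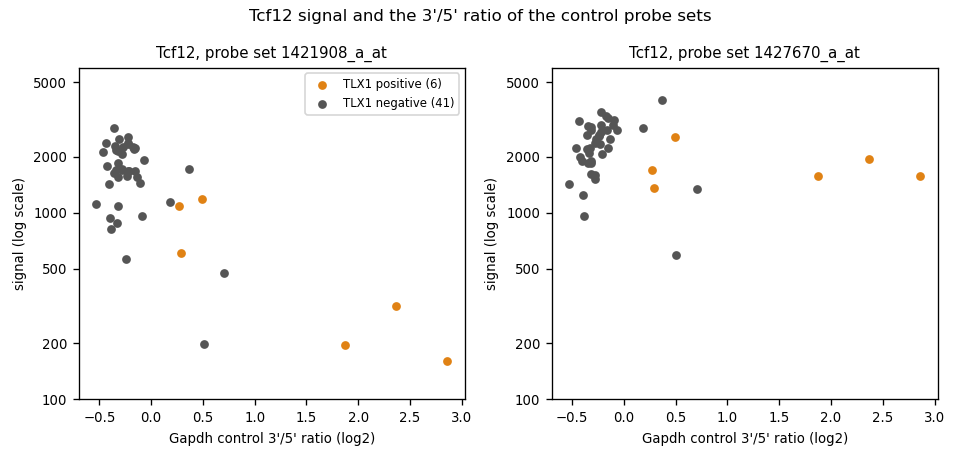
Tcf12 signal on both probe sets (vertical log axes, deposited units) against the log2 ratio of 3′ to 5′ Gapdh signal (horizontal axis) for 6 TLX1-positive (orange) and 41 TLX1-negative (grey) tumours. The 3 TLX1-positive tumours at the largest ratios have 160, 197 and 316 on 1421908_a_at and 1569 to 1940 on 1427670_a_at; the TLX1-negative tumour at 197 on 1421908_a_at is p53 knockout tumour 2.

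In Tcf12 the p53 knockout tumours had 478, 197 and 2219 on 1421908_a_at and 1344, 595 and 2212 on 1427670_a_at. Tumour 3 was not low, against medians of 1674 and 2216 over all 47. Tumours 1 and 2 had log2 Gapdh ratios of 0.71 and 0.51, the largest among the TLX1-negative tumours. The p53 knockout differences from the other 13 backgrounds were −1.27 ± 0.42 (limma adjusted p = 0.0263) and −0.96 ± 0.24 (0.00393). In this contrast 23% of all probe sets were called and 11.3% were lower. Tumour 2, the array with the fewest T-cell markers, was lowest on both, and without it the differences were −0.50 and −0.45 (adjusted p = 0.569 and 0.286). Without tumour 1 the call on 1421908_a_at also ended, at −1.11.

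Tcf4 (chromosome 18, 69343429 to 69687967) encodes the third E protein, best known from plasmacytoid dendritic and B-lineage cells; it is not the Wnt effector of similar name. Its 5 tested probe sets were above the array median in 20 to 40 of the 47 tumours. On 1424089_a_at E2A knockout tumours had 119 and 2.68 and rag E2A knockout tumours 41.5 and 9.84, against 29.5 to 1741 (median 79.8) in the other 43. On 1434148_at E2A knockout tumours had 210 and 13.1 and rag E2A knockout tumours 110 and 10.1, against 41.4 to 1303 (median 176). One tumour of each E2A background, tumour 2 in both, lay below all 43 others, as both did in 0.626% of all probe sets, and tumour 1 lay inside their range.

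The same held on 1434149_at, where E2A knockout tumours had 56.7 and 15.3 and rag E2A knockout tumours 36.8 and 10.1, against 18.9 to 475 (median 59.3) in the others. On 1416723_at E2A knockout tumours had 331 and 26.3 and rag E2A knockout tumours 133 and 12.99, against 55.6 to 1741 (median 154). The level of Tcf4 thus split both E2A backgrounds in the same way, with 1 tumour of ordinary signal and 1 below every tumour outside them. The E2A-deficient differences were −1.36 ± 0.36, −1.42 ± 0.42 and −1.11 ± 0.32 on 1424089_a_at, 1434148_at and 1434149_at (limma adjusted p = 0.00986, 0.0221 and 0.0159). They were −1.14 ± 0.40 on 1416723_at and −1.10 ± 0.38 on 1416724_x_at, which were not called (adjusted p = 0.0553 and 0.0510).

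All 3 calls ended with quantile normalization (−1.14, −1.21 and −0.82), with the offset at the median signal (−0.71, −0.84 and −0.59), without E2A knockout tumour 2 (−0.64, −0.68 and −0.81), and without rag E2A knockout tumour 2 (−1.07, −0.85 and −0.86). Markers of other cell types were low in the same tumours. Summed endothelium markers were 185 to 327 in the 4 E2A-deficient tumours and 195 to 17500 in the other 43, and summed stroma markers were 435 to 2139 against 277 to 23370. In E2A-deficient tumours 5 of 9 endothelium and 6 of 8 stroma markers tested were lower, Sparc by −3.02 and Col3a1 by −2.83, against 8.45% lower over all probe sets. Their part in the Tcf4 difference was not tested.

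**Figure D4:**
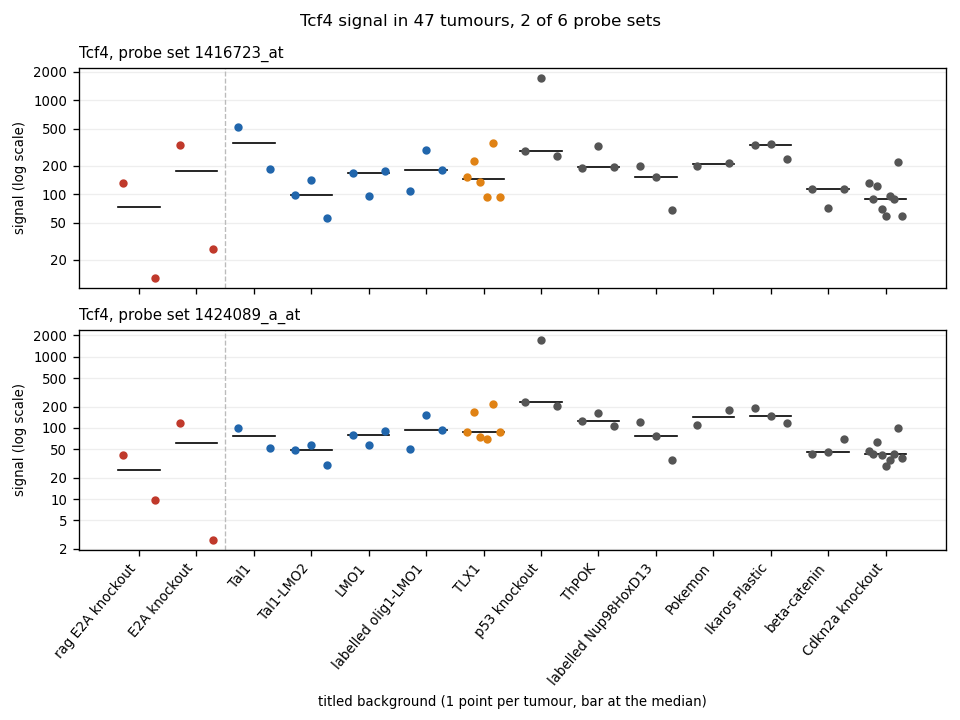
Tcf4 signal on 1416723_at and 1424089_a_at (log axes, deposited units) in every tumour by background; points are tumours and bars are medians. Tumour 2 of each E2A background lies below all other tumours, and p53 knockout tumour 2 is highest at 1741 on both.

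On 4 of its 5 tested probe sets Tcf4 was highest in p53 knockout tumours, and on 1434149_at in Ikaros Plastic tumours (log2 mean 7.40, against 7.19 in p53 knockout). The p53 knockout tumours had 234, 1741 and 202 on 1424089_a_at and 349, 1874 and 206 on 1416724_x_at. Of the 5 tested probe sets, 4 were called higher against the other 13 backgrounds, 1416723_at by 1.71 ± 0.46, 1416724_x_at by 2.09 ± 0.43, 1424089_a_at by 2.39 ± 0.41 and 1434148_at by 1.55 ± 0.48 (limma adjusted p = 0.0067, 0.000746, 9.73e-05 and 0.0185), where 11.7% of all probe sets were higher. Tumour 2 held the top value on all of them. Without it 1424089_a_at was still called, at 1.42 (adjusted p = 0.0291), and the others were not, at 0.85, 1.18 and 0.73 (adjusted p = 0.321, 0.106 and 0.45).

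Tumour 2 was also the tumour with the highest endothelium and stroma sums, and 8 of 9 endothelium and 7 of 8 stroma markers were higher in p53 knockout tumours while 4 of 7 T-cell markers were lower. Over all 47 tumours Tcf4 on 1424089_a_at had r = 0.685 with the summed endothelium markers and 0.604 with the stroma markers, in log2 values from the same arrays. Without p53 knockout tumour 2 these were 0.442 and 0.536 over 46 tumours. The part of other cell types in the Tcf4 signal, and whether p53 knockout tumour 2 is a T-cell tumour, were not tested.

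Tcf4 was also called in 3 other backgrounds. Ikaros Plastic tumours had 216, 125 and 132 on 1434149_at, a difference of 1.14 ± 0.36 (limma adjusted p = 0.0201), where 23.1% of all probe sets were called; it was not called without tumour 1 or without tumour 2 (0.91 and 1.27). The Cdkn2a knockout tumours ran between 29.5 and 98.4 on 1424089_a_at, with a median of 42.8. They were lower on 1416724_x_at, 1424089_a_at and 1434148_at, by −0.68 ± 0.27, −0.71 ± 0.26 and −0.90 ± 0.30 (limma adjusted p = 0.0490, 0.0306 and 0.0196), where 33% of all probe sets were called. Tumour 8 was the highest of the 9 on each. On 1424089_a_at their log2 mean of 5.96 lay above Tal1-LMO2 (5.93), E2A knockout (5.64) and rag E2A knockout tumours (5.26). On 1434148_at beta-catenin transgenic and both E2A backgrounds were lower, and on 1416724_x_at only rag E2A knockout was. The reference includes p53 knockout tumours, with a mean of 8.84 on 1424089_a_at and tumour 2 at 1741. The Cdkn2a knockout call on 1424089_a_at ended without tumour 4, 5, 6 or 9 (−0.65 to −0.69). That on 1416724_x_at ended in 30 of the 47 fits that left out 1 tumour. In TLX1 transgenic tumours 1434149_at was lower by −0.66 ± 0.26 (adjusted p = 0.0468), where 38% of all probe sets were called and 19.8% were lower, and that call ended in 25 of the 47 such fits.

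Among the Id inhibitors, Id3 (chr4:136143822-136145392), which thymocytes induce on antigen-receptor signalling, had the largest step between neighbouring background means of any member. Rag E2A knockout tumours had 23.7 and 19.7, Tal1 transgenic tumours 55.3 and 39.1, and Tal1-LMO2 tumours 16.3, 27.7 and 197, while E2A knockout tumours had 764 and 141. The 6 lowest of the 47 tumours were both rag E2A, both Tal1 transgenic and Tal1-LMO2 tumours 1 and 2, and the next was a Cdkn2a knockout tumour at 64.4. LMO1 transgenic tumours, at 416, 683 and 271, and labelled olig1-LMO1 tumours, at 499, 532 and 457, were not in that range.

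In the order of Id3 background means, rag E2A knockout (log2 mean 5.23 ± 0.11), Tal1 transgenic (5.97 ± 0.26) and Tal1-LMO2 (6.06 ± 1.47) came lowest. A gap of 2.00, the only one above the pooled spread of 1.02, separated them from Cdkn2a knockout (8.06 ± 1.42). Labelled olig1-LMO1 tumours were highest, at 9.00 ± 0.11 (SD). The Cdkn2a knockout tumours alone ran between 64.4 and 874, with a median of 394.

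Id3 was lower in rag E2A knockout tumours than in the other 13 backgrounds by −2.93 ± 0.70 (limma adjusted p = 0.0228), where 1.25% of all probe sets were lower, and in Tal1-LMO2 tumours by −2.03 ± 0.58 (adjusted p = 0.0276), where 6.3% were called and 5.02% were lower. Leaving out either rag E2A tumour ended the first call at a similar size (−3.003 and −2.85, adjusted p = 0.289 and 0.273). Leaving out Tal1-LMO2 tumour 1 or 2 ended the second (−1.50 and −1.72, adjusted p = 0.261 and 0.202). Both calls also ended with quantile normalization (−2.61 and −1.81) and with the offset at the median signal (−1.95 and −1.40).

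The 4 Tal1 or LMO backgrounds together were lower by −1.06 ± 0.36 than the 7 other TLX1-negative backgrounds (adjusted p = 0.0256), where 19.5% of all probe sets were lower. Only 6 of the 11 tumours lay below the mean of those 7 backgrounds, and without the backgrounds whose labels Lmo1 goes against the difference was −1.55 (adjusted p = 0.00632). Leaving out Tal1 transgenic tumour 2, Tal1-LMO2 tumour 1 or Tal1-LMO2 tumour 2 ended this call (−1.01, −0.93 and −0.98), as did quantile normalization (−0.92), the offset at the median signal (−0.73) and a mean over tumours in place of backgrounds (−0.81).

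The rag E2A minus E2A knockout difference in Id3 was −3.22 ± 0.96 and was not called over all probe sets (limma adjusted p = 0.515). The E2A-deficient tumours together differed by −1.29 ± 0.51 from the other 12 backgrounds (adjusted p = 0.09). Endothelium and B-cell markers moved with Id3. Over 47 tumours its log2 signal had r = 0.522 with the summed endothelium and 0.53 with the summed B-cell markers, from the same arrays. Endothelium sums were 195 to 467 in the 7 rag E2A knockout, Tal1 transgenic and Tal1-LMO2 tumours, against 185 to 17500 in the other 40, whose 2 lowest, at 185 and 327, were the E2A knockout tumours with higher Id3. B-cell sums were 157 to 4325 in those 7, the 4325 in Tal1-LMO2 tumour 3, whose Id3 was 197, against 230 to 18590. In rag E2A knockout tumours 0 of 9 endothelium and 1 of 6 B-cell markers were called lower, and in Tal1-LMO2 tumours 1 of 9 and 1 of 6. Their part in the Id3 values was not tested.

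**Figure D5:**
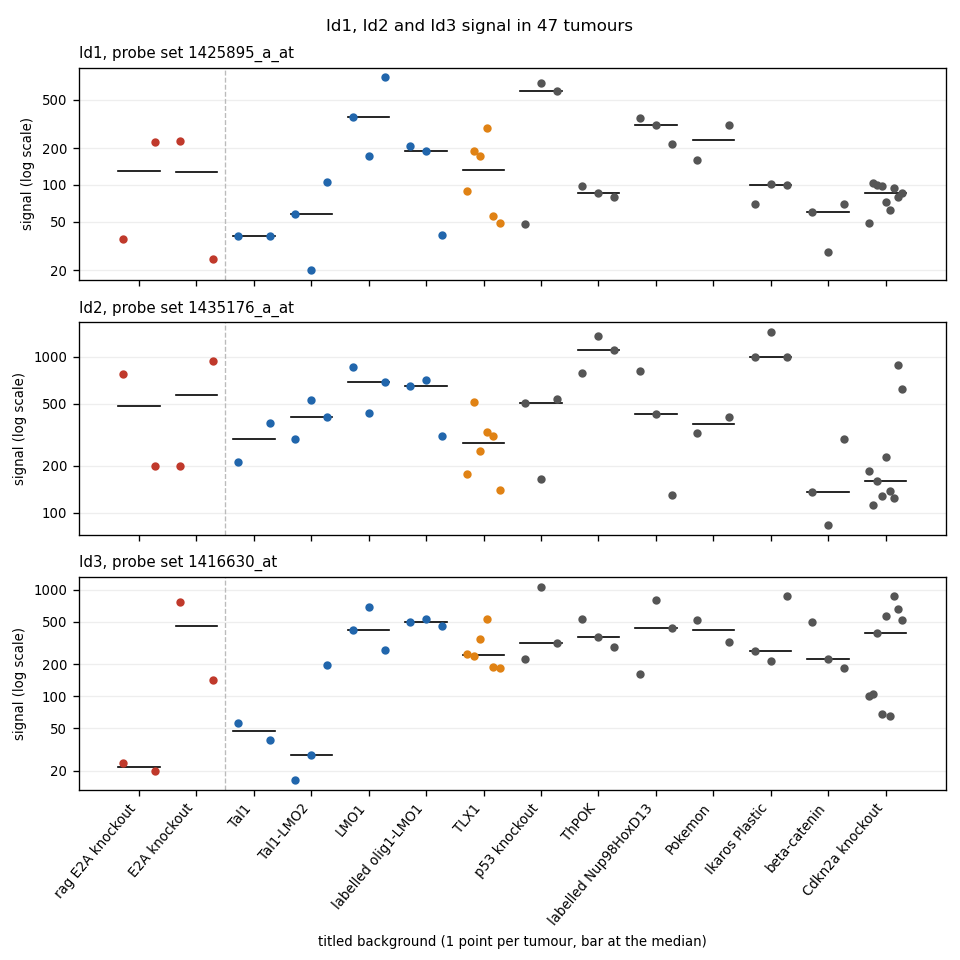
Signals of Id1 (1425895_a_at), Id2 (1435176_a_at) and Id3 (1416630_at) on log axes (deposited units) in every tumour by background; points are tumours and bars are medians. The 6 lowest Id3 tumours belong to rag E2A knockout, Tal1 transgenic and Tal1-LMO2 backgrounds, and Id2 is highest in Ikaros Plastic and ThPOK tumours.

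Id2 (chr12:25093799-25096092), which opposes E proteins in innate lymphoid and effector T cells, was highest in Ikaros Plastic and ThPOK transgenic tumours on 1435176_a_at. Ikaros Plastic tumours, which carry a mutant of the lymphoid zinc-finger factor Ikaros, had 993, 1437 and 991, and ThPOK transgenic tumours, with the factor that sets the CD4 helper lineage, had 781, 1352 and 1099. All 6 lay above 377, the median of the 43 tumours without E2A deficiency, and they overlapped the highest tumours of other backgrounds, such as E2A knockout tumour 2 at 940. Their differences from the other 13 backgrounds were 1.54 ± 0.48 (limma adjusted p = 0.0180, where 16.3% of all probe sets were higher) and 1.44 ± 0.48 (adjusted p = 0.0401, where 12.6% were called and 6.98% were higher). The Ikaros Plastic call ended without tumour 2, at 1.37, and the ThPOK call without any one of its 3 tumours, at 1.26 to 1.65.

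Id2 was lowest in beta-catenin transgenic tumours, at 136, 82.9 and 294, and in Cdkn2a knockout tumours, where 7 of 9 lay between 111 and 228 and tumours 8 and 9 had 882 and 619.5. The beta-catenin difference was −1.44 ± 0.48 on 1435176_a_at and −1.74 ± 0.58 on 1422537_a_at (limma adjusted p = 0.0270 and 0.0302), where 6.89% of all probe sets were lower, and it was not called on either without tumour 1 or without tumour 2. The Cdkn2a knockout difference was −0.93 ± 0.30 on 1435176_a_at and −1.44 ± 0.36 on 1422537_a_at (adjusted p = 0.0140 and 0.00245), where 13.5% of all probe sets were lower, and both calls held with each tumour left out. In E2A knockout tumours 1435176_a_at had 198 and 940 and in rag E2A knockout tumours 772 and 199, a difference of 0.04 ± 0.42 from the other 12 backgrounds (adjusted p = 0.97), with 1 high and 1 low tumour in each.

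T-cell and innate lymphoid marker sums are set beside Id2 here. Over 47 tumours its log2 signal on 1435176_a_at had r = 0.375 with the summed T-cell markers and 0.38 with the summed NK and innate lymphoid markers, from the same arrays. The innate sums were 640 to 1721 in beta-catenin transgenic tumours, against 170 to 10020 in the other 44, with 0 of 5 markers called. In Cdkn2a knockout tumours they were 170 to 5350, with 5067 and 5350 in tumours 8 and 9, whose Id2 was high, and 3700 and 5108 in tumours 3 and 7, whose Id2 was low. T-cell sums were 5928 to 13290 in Cdkn2a knockout tumours, against 1541 to 31150 in the other 38, with 2 of 7 markers lower. Their part in the Id2 differences was not tested.

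The promoters of Id2 and Id3 are shown because E proteins bind E-boxes and these 2 inhibitors had calls in single backgrounds. No Id1 window was in the promoter set used here. Each sequence is the 250 bases before the RefSeq gene start (GRCm38.p6), read 5′ to 3′ on the gene's strand, at chr12:25096093-25096342 on the minus strand for Id2 and chr4:136143572-136143821 on the plus strand for Id3. Capitals mark matches to CANNTG, searched on both strands.
Id2: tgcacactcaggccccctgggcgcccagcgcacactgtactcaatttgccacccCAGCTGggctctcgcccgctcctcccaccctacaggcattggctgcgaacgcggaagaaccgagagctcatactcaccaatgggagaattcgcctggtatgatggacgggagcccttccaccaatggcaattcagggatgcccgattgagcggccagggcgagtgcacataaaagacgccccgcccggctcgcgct
Id3: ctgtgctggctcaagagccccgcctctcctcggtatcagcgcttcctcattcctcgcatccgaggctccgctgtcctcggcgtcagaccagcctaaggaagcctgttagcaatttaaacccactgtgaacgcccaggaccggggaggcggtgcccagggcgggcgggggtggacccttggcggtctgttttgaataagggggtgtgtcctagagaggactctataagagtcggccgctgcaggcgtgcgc

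The Id2 window held 1 match, CAGCTG, beginning 196 bases before the start, and the Id3 window held none. The Tcf3 window, chr10:80433636-80433885 on the minus strand, lies inside the gene span given above, before a start within that span. It held 1 match, CACTTG, 54 bases before that start. Tcf12 windows held CAGCTG 240 and CAAGTG 149 bases before their starts, and a further Tcf12 window held no match. Of 32851 RefSeq promoter windows of the same length, 66.2% held CANNTG, 4271 held CAGCTG and 17.2% held CACCTG or its reverse complement CAGGTG. A match is a run of letters and not a measured site, and no match says only that these letters are not in this window.

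Id1 (chr2:152736251-152737410), a target of BMP signalling, varied widely among tumours of one background, with 52.8% of its variance between backgrounds. LMO1 transgenic tumours had 359, 173 and 762, labelled Nup98HoxD13 tumours 355, 309 and 215, and p53 knockout tumours 47.7, 686 and 587. Tal1 transgenic tumours had 38.4 and 38.1 and Tal1-LMO2 tumours 58.0, 19.9 and 105. E2A knockout tumours had 228 and 24.6 and rag E2A knockout tumours 35.8 and 224, each with 1 high and 1 low tumour. No single contrast called Id1, while the F test did (limma adjusted p = 0.00605). The contrasts of Tal1 transgenic, LMO1 transgenic, labelled Nup98HoxD13 and Pokemon transgenic tumours called no member at all, where 6.16%, 1.54%, 4.25% and 1.1% of all probe sets were called. The p53 knockout tumour 2, at 686, was the array with the lowest T-cell and the highest endothelium sum. Without p53 knockout tumour 1, that background was called at 2.41 (adjusted p = 0.00116). It was also called with the offset at the median signal (1.05), with quantile normalization (1.31), with the Gapdh ratio as covariate (1.49) and without the 2 backgrounds whose labels Lmo1 goes against (1.42), at adjusted p between 0.0308 and 0.0460. Array weights called Id1 higher in LMO1 transgenic tumours (2.21, adjusted p = 5.49e-05) and lower in beta-catenin transgenic tumours (−0.99, adjusted p = 0.0409), which quantile normalization also called (−1.41, adjusted p = 0.0355).

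The members did not move as one block. On each gene's brightest probe set over 47 tumours, with arrays and backgrounds shared by all points, the largest Pearson correlation between members was 0.444, for Id1 with Id3, and the most negative was −0.352, for Tcf12 with Id3. Tcf3 and Id3 had r = −0.123. Tested probe sets of one gene had r = 0.839 to 0.891 for Tcf3, 0.586 for Tcf12, 0.786 to 0.953 for Tcf4 and 0.895 for Id2. Of all other genes, those most like Tcf3 were D16Ertd472e (0.658), Edem1 (0.640) and Stat5b (0.613). Those most like Tcf12 were Hnrnpa2b1 (0.823), Tomm20 (0.808) and Srsf1 (0.807). For Tcf4 they were Gab1 (0.690), Gprc5b (0.671) and Art3 (0.660), for Id1 Ptp4a3 (0.726), Heyl (0.690) and Slmap (0.664), for Id2 Deptor (0.695), Arhgap5 (0.693) and Slfn2 (0.649), and for Id3 Nfkb2 (0.686), Nab2 (0.675) and Clec14a (0.667). Of these 18 genes, 10 were also among the 3 highest by Spearman correlation and 2 after values were centred on their background means.

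Other genes of the pathway were read from lists of tested genes, each gene by one probe set. Of 10 genes that E proteins activate in thymocytes, 1 was called higher and none lower in E2A-deficient tumours, with a list median of 0.63 against −0.08 over all probe sets, of which 3.81% were higher; it was Notch1, the receptor that commits progenitors to the T lineage (1.99 ± 0.57, limma adjusted p = 0.0165). Of 8 genes that E proteins hold down, 1 was called, Il4ra, the interleukin 4 receptor chain, which was lower (−0.94 ± 0.32, limma adjusted p = 0.0461). The list median was −0.09, and 8.45% of all probe sets were lower. In either direction 12.3% of all probe sets were called, so neither count sets its list apart. None of 6 double-positive and none of 7 mature T-cell genes was called. Of 7 T-cell markers, 1, Thy1, was higher, by 0.91.

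Of 8 helix-loop-helix partner and LMO complex genes, 2 were lower in E2A-deficient tumours, Lmo2 by −1.66 ± 0.37 and the inhibitor Id4, for which no size is given because its tested probe set was above the array median in 2 of the 47 arrays. Of 12 genes of the EGR and SMAD routes that induce Id genes, 3 were lower and none higher, against 8.45% lower over all probe sets. The 3 were the BMP receptor Bmpr1a (−1.32), its effector Smad1 (−1.58) and the orphan receptor Nr4a1 (−1.42). The list median was −0.57, against −0.08 over all probe sets. In rag E2A knockout tumours alone, where Id3 was lowest, 2 of the 12 were lower, Smad1 by −2.63 and Nr4a1 by −2.38, against 1.25% over all. Stroma and endothelium markers were lower in the same tumours, and their part in these values was not tested.

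In the Tal1 or LMO tumours, 6 of the 12 EGR and SMAD genes were lower and none higher, among them Smad1 (−1.10), Smad7 (−0.72), Smad5 (−0.57) and the activin receptor Acvr1 (−0.47), against 19.5% lower over all probe sets. The part of the stroma and myeloid markers that were lower in this contrast was not tested here either. In Ikaros Plastic tumours, where Id2 was high, 4 of the 12 were higher, Egr1 (1.76), Nr4a1 (1.67), Bmpr1a (1.46) and Smad7 (1.20), against 16.3% over all, and 4 of 7 mature T-cell genes were higher, as were 5 of 8 stroma markers. In beta-catenin transgenic tumours, where Tcf3 was high and Id2 low, the genes that E proteins activate went both ways: Notch1 (−4.09) and Ptcra (−3.68), the pre-T-cell receptor chain, were lower, while Cxcr4 (1.20) and Cdkn1a (2.07) were higher, where 6.89% of all probe sets were lower and 13.9% higher.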

How the data were processed

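Total RNA of 47 tumours was hybridised as biotinylated cRNA to 1-colour Affymetrix arrays, per the labels' protocols. The deposited values are signal intensities on a linear scale; MAS5 is named in the submitters' processing notes, without a version or scaling. Signals were not normalized again. The authors' deposited intensities were taken to log2(signal + 15.9), the offset being the 25th percentile of all signals, and probe sets with 1 gene symbol and a signal above the array median in at least 2 arrays were kept (14054). Group means of the 14 titled backgrounds were fitted with limma 3.58.1 (R 4.3.3; lmFit, eBayes with trend) and p-values adjusted by Benjamini-Hochberg over all probe sets, with calls below 0.05. Each background was set against the unweighted mean of the other 13, so the contrasts share tumours. Pairs of Tcf3 probe sets are given as differences with no test, since they were set out for how they differ; descriptions were computed in Python 3.11.15. The fit was tested on simulated data. Probe symbols came from the platform annotation and loci and promoters from RefSeq. The members and gene lists were chosen with earlier results of these data known. Named were all members, the 3 genes most correlated with each member's brightest probe set, and called genes of the lists. Alternatives were other offsets, quantile normalization, no filter, 1 probe set per gene, array weights, the Gapdh ratio as covariate, tumours left out and blocks. Arrays give no counts, and the number of tumours limits the precision.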

Additional observations from a re-analysis of the deposited data

Results flagged for a closer look

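Within the 9 Cdkn2a knockout tumours raised by retroviral insertional mutagenesis, tumour 8 lay far from the other 8 on 6 of the 16 member probe sets. A tumour was listed where its gap to the nearest of its group, divided by the range of the group, passed Dixon's 95% limit; chance lists about 1 in 20 groups, and 32 groups were examined. Its Tcf3 signal was 339 on 1426297_at, against 506 to 679 in the other 8, and 23.8 on 1452542_x_at, against 63.7 to 106. Its Tcf12 signal was 819 on 1421908_a_at, against 1631 to 2859, and 962 on 1427670_a_at, against 1853 to 3098. Its Tcf4 signal was 176 on 1434148_at, against 43.1 to 87.2, and 116 on 1434149_at, against 29.4 to 52.2. The tumour was thus lowest of its group in Tcf3 and Tcf12 and highest in Tcf4 and, at 882, in Id2 on 1435176_a_at. By the same limit it stood apart from its group on 8.22% of all 14054 tested probe sets, against 0.0783% to 1.17% for each of the other 8 tumours, and its array median was 96.5, against 67.6 to 82.9. It had the 4th highest endothelium marker sum (1094) and the 28th highest T-cell marker sum (13010) of the 47 tumours; their part in its member signals was not tested.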

How the results depend on the processing

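The number of member genes called moved with several settings. With the offset at the median signal, 1 member gene was called in E2A-deficient against other tumours, 1 in Tal1 or LMO, 1 in TLX1 transgenic, 1 in rag E2A knockout and 0 in Tal1-LMO2 tumours, in place of 2, 2, 2, 2 and 1. Quantile normalization gave 1 in E2A-deficient, Tal1 or LMO, rag E2A knockout and Ikaros Plastic tumours, 0 in Tal1-LMO2 and labelled olig1-LMO1 tumours, and 4 in beta-catenin tumours in place of 2. With 1 probe set per gene, 1 remained in E2A-deficient, rag E2A knockout, Ikaros Plastic and Cdkn2a knockout tumours and 0 in labelled olig1-LMO1 tumours and in both TLX1 contrasts. Array weights gave 1 in p53 knockout, 3 in ThPOK, 3 in LMO1, 2 in Tal1-LMO2, 5 in beta-catenin and 4 in Cdkn2a knockout tumours. The Gapdh ratio as covariate gave 4 in Tal1 or LMO, 2 in ThPOK, 1 in Cdkn2a knockout tumours and 0 in both TLX1 contrasts, and turned Tcf12 on 1421908_a_at to 4e-04 in TLX1-positive tumours. No filter gave 1 in TLX1 transgenic and 0 in labelled olig1-LMO1 tumours, a mean over tumours 1 in Tal1 or LMO tumours, and background as a random block 0 in TLX1-positive tumours. Without TLX1 tumours 2, 5 and 6 both TLX1 contrasts called 0. Without the tumours labelled olig1-LMO1 and Nup98HoxD13, 1 was called in TLX1 transgenic and 0 in Tal1-LMO2 tumours. The causes of these changes were not tested.

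With each tumour left out in turn, 0 to 1 member genes were called in E2A-deficient against Tal1-labelled tumours, 1 to 2 in E2A-deficient against other tumours, 0 to 3 in Ikaros Plastic, 1 to 2 in TLX1 transgenic, 1 to 4 in Tal1 or LMO, 0 to 1 in Tal1 transgenic, 0 to 2 in Tal1-LMO2, 0 to 1 in ThPOK, 1 to 2 in beta-catenin, 0 to 1 in labelled olig1-LMO1, 1 to 3 in p53 knockout, 0 to 2 in rag E2A knockout and 2 to 3 in Cdkn2a knockout tumours. The Tcf3 probe set differences were 0.52 to 0.95, 0.74 to 1.05 and 0.08 to 0.22. With the offset at the median they were 0.22, −0.20 and −0.42, and with an offset of 1 the third was 1.97. Of 55 called member tests, none changed sign with a tumour left out, and 1 did in the other settings.

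The numbers in the titles do not pair the tumours: deviations of same-numbered tumours had a median correlation of −0.002 over 230 pairs. With the number as a replicate block, 2 member genes were called in E2A-deficient tumours, as without it, Tcf4 there also on 1416723_at (−1.27) and 1416724_x_at (−1.22), while 1 was called in TLX1 transgenic and 1 in Cdkn2a knockout tumours in place of 2. Over all probe sets the E2A-deficient contrast called 1723 (840 to 2309 over the settings), E2A-deficient against Tal1-labelled 5 (2 to 24), TLX1-positive against negative 3959 (3 to 5167) and p53 knockout 3233 (607 to 3705). Background sizes of 2 or 3 tumours limit all single-background values.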

Other observations

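Within the E2A backgrounds, the member genes divided the same 4 tumours in different ways, as values with no test. Tcf4 was higher in tumour 1 than in tumour 2 of both backgrounds. On 1416723_at the E2A knockout tumours had 331 and 26.3 and the rag E2A knockout tumours 133 and 12.99. Rag E2A knockout tumour 1 was thus below 152, the median over all tumours. Summed plasmacytoid dendritic markers ran the other way. They were 1877 and 3315 in E2A knockout tumours 1 and 2, and 830.6 and 3841 in rag E2A knockout tumours 1 and 2. Summed stroma markers ran the same way as Tcf4, at 1175 and 435 in E2A knockout tumours 1 and 2, and 2139 and 714 in rag E2A knockout tumours 1 and 2. Summed endothelium markers were 185 and 327 in E2A knockout tumours 1 and 2, and 271 and 225 in rag E2A knockout tumours 1 and 2. The part of these cell types in the Tcf4 values was not tested. The inhibitor Id2 on 1435176_a_at was high in E2A knockout tumour 2 (940) and rag E2A knockout tumour 1 (772) and near 199 in the other 2. Id1 was high in E2A knockout tumour 1 (228) and rag E2A knockout tumour 2 (224), the reverse of Id2.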
